A study of Homo sapiens with 15 samples.

Results

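The 10 genes described here encode cyclins and the cyclin-dependent kinases (CDKs) that drive the cell cycle. They are CCND2, CCND3, CCNE1, CCNE2, CCNA2 and CCNB1 among the cyclins and CDK1, CDK2, CDK4 and CDK6 among the kinases. They were chosen by gene symbol, with earlier results of these data known, from 57820 gene identifiers, and each symbol matched 1 identifier. No limit on a value or a fold change was part of the choice, except that a gene listed at 0 throughout a line was not tested there, and all 10 members were above 0 in every library. RNA-seq was performed in the human AML lines HL-60, MOLM-13 and U937, each transduced with the empty lentiviral vector pLKO (control) or with a hairpin against RNF5 (shRNF5, RNF5-KD), an ER-anchored E3 ubiquitin ligase. There were 15 libraries: 3 of pLKO and 2 of shRNF5 from MOLM-13, 2 of each construct from U937, and 3 of each from HL-60. RNA was taken 7 days after knockdown by the sample labels and 5 days by the series design, and the hairpin that was sequenced is not named. The labels speak of triplicates without saying that they were separate cultures or transductions, so p-values measure the spread between these libraries, which may be technical.

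Cyclins are regulatory subunits that bind and switch on CDKs, whose own levels are known to vary less through the cycle. D-type cyclins with CDK4 or CDK6 start the phosphorylation of the retinoblastoma protein and so release E2F transcription factors, E-type cyclins with CDK2 take cells into DNA synthesis, cyclin A2 acts with CDK2 and CDK1 from DNA synthesis onwards, and cyclin B1 with CDK1 drives mitosis. CDK6 is known as the main partner of D-type cyclins in many blood cells and as a kinase on which some leukemias with KMT2A fusions depend. Cyclin proteins are also removed by ubiquitination, so an mRNA level is not a protein level.

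The values are normalized read counts as the authors deposited them, and fold changes are differences of log2(value + 1), shRNF5 minus pLKO, from limma fits over all genes of a line. A gene was called where the Benjamini-Hochberg adjusted p was under 0.1 and the absolute log2 fold change was over 0.4. The hairpin target RNF5 fell in all 3 lines, with a log2 fold change of -3.25 in HL-60 (limma adjusted p = 0.00125), -3.64 in U937 (0.00287) and -3.77 in MOLM-13 (0.000336). All 6 markers listed as myeloid were above 0 in every library, though PTPRC among them marks leukocytes in general. Of 11 markers of other cell types, 7 were listed at 0 throughout. HOXA9 and MEIS1, homeobox genes of immature leukemic cells, were listed at 0 in all HL-60 libraries and fell in U937, by 1.48 (limma adjusted p = 0.0179) and by 0.96 (0.0738) on the log2 scale. In HL-60, the myeloid markers LYZ (log2 fold change 1.25) and MPO (0.60) rose, as did PTPRC (0.42) and the epithelial marker KRT8 (1.56). The myeloid marker CD33 (-0.45) fell in HL-60. SPI1 and CEBPA were not called there. The summed myeloid markers were 113869 to 138521 with pLKO and 150336 to 217729 with shRNF5 in HL-60. Most of this sum was MPO, at 105563 to 130372 with pLKO and 141317 to 207430 with shRNF5. The summed markers of other cell types were 29 to 42 and 62 to 64 in HL-60. In U937 they were 159 to 360 with pLKO and 89 to 94 with shRNF5. The part of these markers in the results for the cyclins was not tested. By an estimate of counted reads, depth ran from 9700000 to 15300000 in pLKO and from 24400000 to 63100000 in shRNF5 libraries of MOLM-13, so depth and construct cannot be told apart in that line. It ran from 14000000 to 20500000 in U937 and from 13300000 to 21400000 in HL-60. Replicates of a group correlated across genes at a Pearson r of 0.952 to 0.992, lowest for the pair of U937 pLKO libraries. In bulk RNA, fewer cells of a cycle phase and less RNA per cell cannot be told apart.

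With RNF5-KD, mRNAs of D- and E-type cyclins changed in U937 and HL-60, by different genes and amounts. The CDK mRNAs passed the main call in no line. Under alternatives, CDK6 was called higher in HL-60 with the transcript length correction (log2 fold change 0.45, limma adjusted p = 0.0298). CDK4 was called higher there without pLKO replicate 2 (0.53, 0.0289) or shRNF5 replicate 1 (0.49, 0.0585). With no minimum fold change, CDK1 and CDK4 were called higher in HL-60. The calls over all genes in HL-60 also rose with that setting, above the 3251 of the main fit. In MOLM-13, CDK1 was called lower with a replicate block that took the shRNF5 numbers as 2 and 3 (-0.59, limma adjusted p = 0.000593). That block was added after the data were seen and gave 2495 calls over all genes. In MOLM-13, 0 of 10 members were called with limma, where 2.04% of 13026 tested genes were called (1.03% higher and 1.01% lower), and 0 members had an unadjusted p under 0.05. In U937, CCND3, CCNE1 and CCNE2 rose and no member fell, beside 15.7% of 13165 tested genes (6.92% higher and 8.74% lower). In HL-60, CCND3 and CCNE2 rose and CCND2 and CCNE1 fell, beside 25.9% of 12570 tested genes (13.6% higher and 12.3% lower). Unadjusted p-values under 0.05 were found for 5 members in U937 and 7 in HL-60. The share of all tested genes under that limit was not counted, so these counts are not a result particular to the members. Libraries of the 2 constructs did not overlap for 7 members in HL-60, 8 in U937 and 1 in MOLM-13, and the same was seen for 38.5%, 59.2% and 38.7% of all tested genes there. The 6 cyclins had a median absolute log2 fold change of 0.74 in HL-60, 1.36 in U937 and 0.31 in MOLM-13. That of the 4 CDKs was 0.28, 0.31 and 0.25 in the same order, against 0.29, 0.46 and 0.24 for all tested genes. The calls in U937 rest on few libraries. Without pLKO replicate 2, shRNF5 replicate 1 or shRNF5 replicate 3, each of which leaves 1 library in its arm, 0 members were called in U937, and over all genes the calls there came to 0, 0 and 6.

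**Figure D1:**
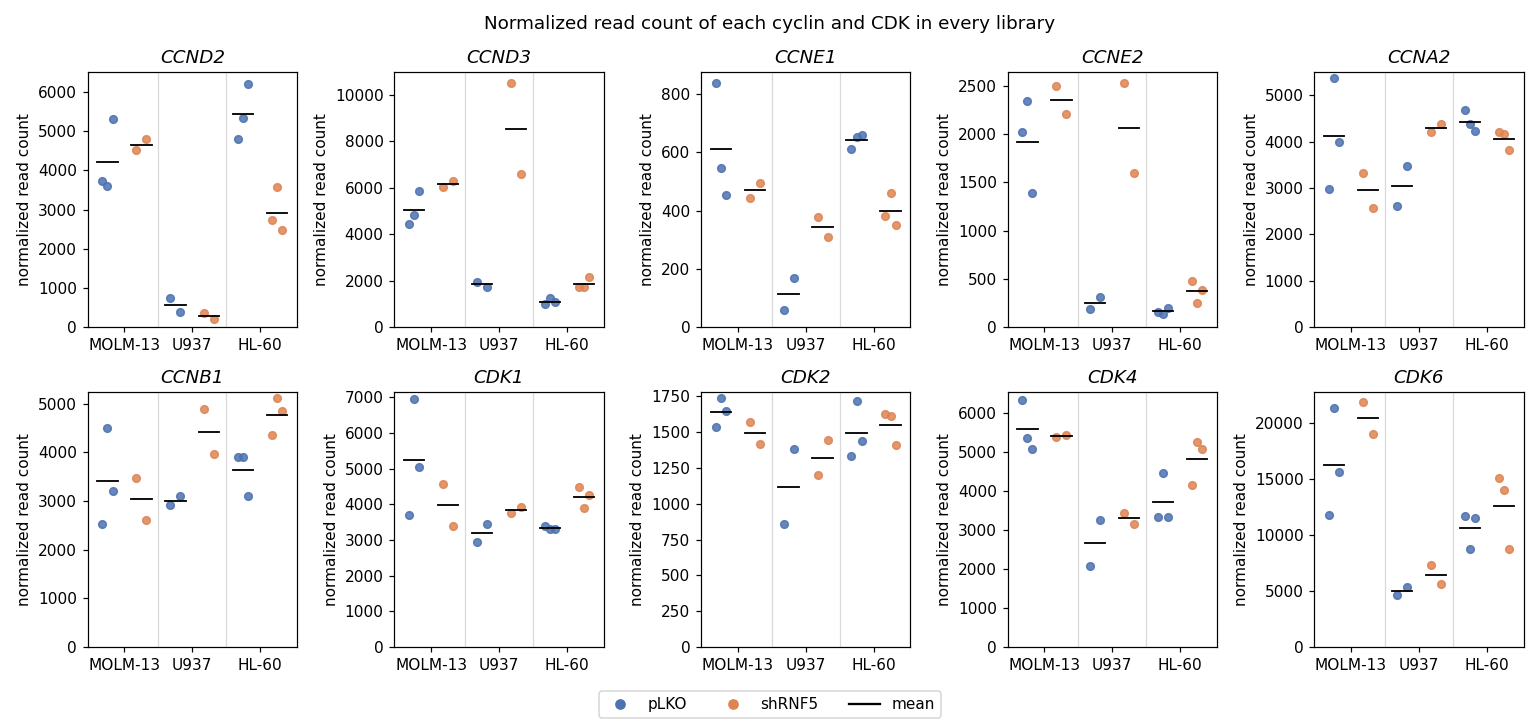
Normalized read count of each member (vertical axis, from 0, a separate scale per gene) in each of the 15 libraries, by line and construct. Points are libraries and bars are means. CCND3 and CCNE2 with shRNF5 lie far above pLKO in U937 and above it in HL-60, CCND2 and CCNE1 with shRNF5 lie below pLKO in HL-60, and the 4 CDKs show small or overlapping shifts.

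Among the D-type cyclins, CCND3 rose in U937 and HL-60 and CCND2 fell in HL-60. CCND3 is at 41902672 to 42018095 of chromosome 6 (GRCh37, reverse strand). In U937 its normalized read count was 1956 and 1724 with pLKO and 10502 and 6567 with shRNF5, so that each knockdown library was far above each control. The mean was 1840.0 ± 164.0 (SD, n = 2) in controls and 8534.5 ± 2782.5 (SD, n = 2) after knockdown, a log2 fold change of 2.18 with an SE of 0.28 and a limma adjusted p of 0.00881. In HL-60 the values were 978, 1235 and 1059 with pLKO and 1704, 1739 and 2163 with shRNF5, again without overlap, and the log2 fold change was 0.77 with an SE of 0.14 (limma adjusted p = 0.00573). The MOLM-13 libraries gave 4419, 4815 and 5836 with pLKO and 6003 and 6294 with shRNF5. Here too the shRNF5 libraries lay above all pLKO libraries, and CCND3 was the only member without overlap in this line, but the log2 fold change of 0.30 did not pass (limma adjusted p = 0.354). The HL-60 call of CCND3 held in all 6 fits that left out a library, with log2 fold changes of 0.67 to 0.87.

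CCND2, the other D-type cyclin among the members, is at 4378937 to 4414519 of chromosome 12 (GRCh37, forward strand). In HL-60 its values were 4804, 5327 and 6215 with pLKO and 2725, 3566 and 2465 with shRNF5. All 3 knockdown libraries were below all 3 controls, with a log2 fold change of -0.91, an SE of 0.16 and a limma adjusted p of 0.00482, and the call held in all 6 fits without a library. In U937 the values were 749 and 381 with pLKO and 365 and 211 with shRNF5. The groups did not overlap there either, by a margin of 381 against 365, and the log2 fold change of -0.94 had a limma adjusted p of 0.155. In MOLM-13, values of 3721, 3592 and 5318 with pLKO and 4522 and 4797 with shRNF5 overlapped (log2 fold change 0.17, limma adjusted p = 0.679).

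The sequences around the transcription start of CCND3, which rose in U937 and HL-60, and of CCNE1, which rose in U937 and fell in HL-60, are shown because both genes were called in both of these lines and the table has entries for them. They are windows of 300 bases, 250 before and 50 after an annotated start, from RefSeq on GRCh38.p14, which is not the build of the counts. The table held 11 windows for 7 of the 10 members. No entry was matched for CCND2, CCNE2 and CDK2. CCND3 has 3 windows on the reverse strand of chromosome 6, at chr6:42048639-42048938 (upstream start), chr6:41941759-41942058 (middle start) and chr6:41939156-41939455 (downstream start), and the values per gene do not tell which start was used. CCNE1 has a window on the forward strand at chr19:29811741-29812040. Capitals mark matches, on either strand, to the GC box GGGCGG and the CCAAT box CCAAT.
CCND3 upstream start: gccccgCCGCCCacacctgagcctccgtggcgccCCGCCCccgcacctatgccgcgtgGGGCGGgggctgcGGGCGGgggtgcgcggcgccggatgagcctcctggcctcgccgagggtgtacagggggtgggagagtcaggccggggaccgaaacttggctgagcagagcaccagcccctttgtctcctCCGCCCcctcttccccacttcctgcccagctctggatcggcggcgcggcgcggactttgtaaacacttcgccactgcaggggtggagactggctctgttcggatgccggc
CCND3 middle start: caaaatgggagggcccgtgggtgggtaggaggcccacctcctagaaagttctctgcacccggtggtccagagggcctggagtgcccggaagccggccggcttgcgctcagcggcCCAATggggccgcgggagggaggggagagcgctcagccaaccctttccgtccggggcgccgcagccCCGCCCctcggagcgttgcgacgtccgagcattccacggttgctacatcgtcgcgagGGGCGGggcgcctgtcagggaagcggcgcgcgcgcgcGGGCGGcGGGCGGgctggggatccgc
CCND3 downstream start: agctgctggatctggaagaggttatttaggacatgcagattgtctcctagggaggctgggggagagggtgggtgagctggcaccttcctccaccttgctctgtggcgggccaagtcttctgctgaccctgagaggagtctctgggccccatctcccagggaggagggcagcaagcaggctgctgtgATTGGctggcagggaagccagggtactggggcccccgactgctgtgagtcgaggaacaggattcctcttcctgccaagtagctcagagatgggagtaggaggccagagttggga
CCNE1: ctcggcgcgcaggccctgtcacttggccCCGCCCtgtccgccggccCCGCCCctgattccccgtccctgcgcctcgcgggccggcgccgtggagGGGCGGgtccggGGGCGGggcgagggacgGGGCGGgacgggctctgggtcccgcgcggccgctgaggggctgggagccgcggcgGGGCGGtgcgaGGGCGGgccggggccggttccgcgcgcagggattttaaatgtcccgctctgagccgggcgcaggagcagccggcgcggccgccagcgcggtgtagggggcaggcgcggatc
The upstream CCND3 window held 5 GC boxes and no CCAAT box, the middle window 4 GC boxes and 1 CCAAT box, and the downstream window 1 CCAAT box and no GC box. The CCNE1 window held 7 GC boxes and no CCAAT box. GC boxes were in 9 of the 11 windows of the members and in 45.0% of 35116 RefSeq windows, and CCAAT boxes were in 6 of 11 and in 34.6%. The letters TTTCCCGC or TTTGGCGC, forms of the site that E2F factors bind, were in none of the 11 windows and in 2.27% of all, and TTTGAA, the core of the element known as CHR, was in 2 of 11 and in 15.2% of all. Both windows with TTTGAA belong to CDK1, and they share bases with each other. All 5 strings were searched on both strands, and TTTCCCGC can share bases with a GC box read on the other strand. A match is a string of letters and no more. Other forms of the E2F site were not searched, and the searched forms are rare. Their absence from the 11 windows does not show that E2F sites are lacking.

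The E-type cyclins, which activate CDK2, both rose in U937, whereas in HL-60 CCNE2 rose and CCNE1 fell. CCNE2 had the largest fold change of the 10 members in U937 and in HL-60. In U937 its values were 184 and 311 with pLKO and 2526 and 1596 with shRNF5, with a log2 fold change of 3.06, an SE of 0.34 and a limma adjusted p of 0.0036. The lower knockdown library stood far above the higher control. In HL-60 the values were 152, 135 and 198 with pLKO and 476, 250 and 383 with shRNF5, without overlap (log2 fold change 1.16, SE 0.24, limma adjusted p = 0.00962), and the call held in all 6 fits without a library. In MOLM-13 they were 2021, 2348 and 1386 with pLKO and 2497 and 2209 with shRNF5. These groups overlapped, and the log2 fold change of 0.33 did not pass (limma adjusted p = 0.481). CCNE2 shares 1977 bases with INTS8 on the opposite strand, and the strand setting of the counting is not given in the sources used here. INTS8 itself was called in no line (log2 fold change -0.31 in HL-60, 0.10 in U937 and 0.08 in MOLM-13). CCNE2 also shares 1146 bases with NDUFAF6 on the opposite strand. NDUFAF6 was called in no line, with log2 fold changes of 0.46 in U937 (limma adjusted p = 0.317), 0.15 in HL-60 and -0.10 in MOLM-13. The part of either gene in the CCNE2 values was not tested.

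CCNE1, at 30302898 to 30315219 of chromosome 19 (GRCh37, forward strand), went opposite ways in U937 and HL-60. Its U937 values were 58 and 168 with pLKO and 377 and 311 with shRNF5. Both knockdown libraries were above both controls, which themselves differed widely, and the log2 fold change of 1.78 had an SE of 0.48 and a limma adjusted p of 0.0516. Its HL-60 values were 613, 653 and 660 with pLKO and 383, 459 and 351 with shRNF5. Here all knockdown libraries were below all controls, with a log2 fold change of -0.70, an SE of 0.14 and a limma adjusted p of 0.00885. In MOLM-13 the values of 838, 545 and 453 with pLKO overlapped the 443 and 496 with shRNF5, and the log2 fold change was -0.33 (limma adjusted p = 0.539). The HL-60 call was lost in the single fit over all 15 libraries (limma adjusted p = 0.128), and the U937 call was lost without the mean-variance trend (0.145). Leaving out 1 library moved the U937 log2 fold change of CCNE1 to 1.02 (without pLKO replicate 2) at the lowest and 2.54 (without pLKO replicate 3) at the highest.

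The cyclins of the later phases did not pass the main call in any line. CCNA2, which is made from the start of DNA synthesis, had values of 2605 and 3462 with pLKO and 4207 and 4384 with shRNF5 in U937, without overlap. The log2 fold change there was 0.52 (limma adjusted p = 0.204). In HL-60 it had 4675, 4378 and 4222 with pLKO and 4216, 4163 and 3818 with shRNF5, a narrow separation in the other direction with a log2 fold change of -0.12 (limma adjusted p = 0.468). In MOLM-13 the values of 2973, 5363 and 3994 with pLKO overlapped the 3332 and 2560 with shRNF5 (log2 fold change -0.45, limma adjusted p = 0.378). CCNA2 was called lower there with the replicate numbers crossed (-0.45, limma adjusted p = 0.0505) or taken as 2 and 3 (-0.66, 0.000313). Both blocks were added after the data were seen. The single fit over all libraries called CCNA2 higher in U937 (0.52, limma adjusted p = 0.0946).

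CCNB1, the mitotic cyclin, came nearest to a call in HL-60, where the values were 3896, 3907 and 3098 with pLKO and 4348, 5113 and 4855 with shRNF5. The knockdown libraries were all above the controls and the limma adjusted p was 0.0567, but the log2 fold change of 0.398 lay just under the limit of 0.4. It is the member closest to that limit. In U937, 2920 and 3103 with pLKO were below 4891 and 3966 with shRNF5, with a log2 fold change of 0.55 (limma adjusted p = 0.17). The single fit over all libraries called it higher in U937 (0.55, limma adjusted p = 0.0842). In MOLM-13, 2530, 4501 and 3207 with pLKO overlapped 3468 and 2615 with shRNF5 (log2 fold change -0.14, limma adjusted p = 0.801).

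The mRNAs of the 4 kinases shifted less, by 0.05 to 0.39 on the log2 scale in HL-60, 0.27 to 0.37 in U937 and -0.36 to 0.37 in MOLM-13. CDK1, the mitotic kinase, had 3398, 3295 and 3297 with pLKO and 4482, 3888 and 4271 with shRNF5 in HL-60. The groups were separate, and the log2 fold change of 0.34 passed the adjusted p (limma, 0.0564) but not the fold change limit. In U937, 2948 and 3448 with pLKO lay below 3765 and 3930 with shRNF5 (log2 fold change 0.27, limma adjusted p = 0.481). In MOLM-13 the controls ran from 3701 to 6945 and enclosed one of the shRNF5 values, 4564, with 3392 just below them (log2 fold change -0.36, limma adjusted p = 0.5). CDK4, a partner of D-type cyclins, had 3323, 4460 and 3316 with pLKO and 4149, 5255 and 5059 with shRNF5 in HL-60. These overlapped, and the log2 fold change of 0.39 with a limma adjusted p of 0.0935 also missed the fold change limit alone. TSPAN31, which shares 2493 bases with CDK4 on the opposite strand, rose in HL-60 from 106.7 to 226.7 on average (limma adjusted p = 0.00794), and its part in the CDK4 value was not tested.

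CDK2, the partner of E- and A-type cyclins, had 1335, 1715 and 1440 with pLKO and 1626, 1611 and 1408 with shRNF5 in HL-60, and 859 and 1380 against 1203 and 1442 in U937. The values overlapped in both lines. CDK6 had 11715, 8738 and 11517 with pLKO and 15031, 13990 and 8731 with shRNF5 in HL-60, where the third knockdown library was as low as the lowest control. In U937, 4614 and 5318 with pLKO were below 7321 and 5621 with shRNF5 (log2 fold change 0.37, limma adjusted p = 0.358). In MOLM-13, CDK2 ranged from 1416 to 1736, CDK4 from 5062 to 6313 and CDK6 from 11734 to 21881 over the 5 libraries.

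**Figure D2:**
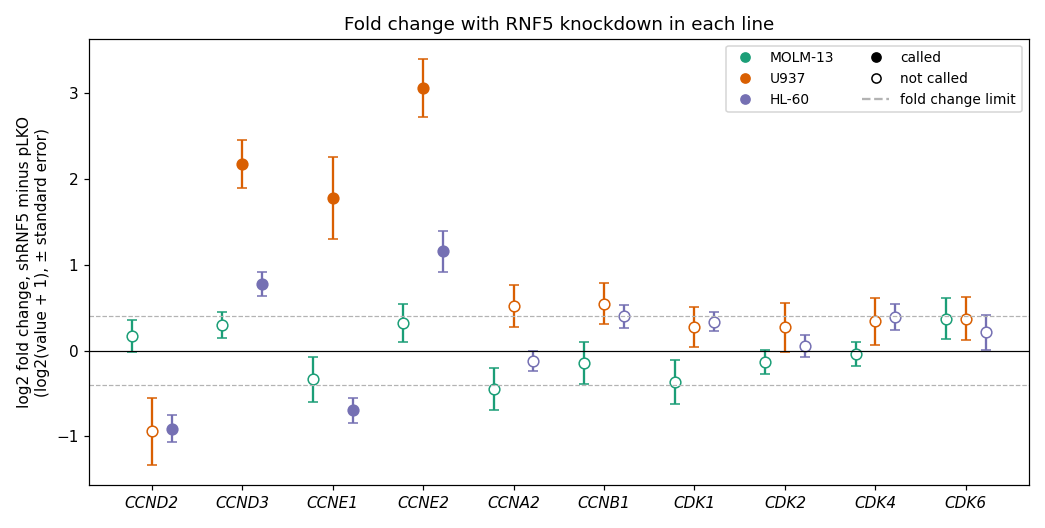
Fold change of each member in each line (vertical axis, log2 of value + 1, shRNF5 minus pLKO, with the standard error from limma). Filled points were called (adjusted p under 0.1 and beyond the dashed lines at 0.4 in either direction) and open points were not. The called points are CCND3, CCNE1 and CCNE2 in U937 and CCND2, CCND3, CCNE1 and CCNE2 in HL-60.

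MOLM-13 pLKO replicate 2 had the highest values of that line in CCNA2 (5363), CCNB1 (4501) and CDK1 (6945). These members therefore varied among the MOLM-13 controls by more than they differed between the constructs. Leaving out that library moved the log2 fold change of CCNB1 from -0.14 to 0.08, the highest of the 5 fits without a library, and no member was called in any of these fits.

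In control cells the lines differed most in the D- and E-type cyclins. Each line was normalized separately, so levels are given per 1000000 of a library's summed values as a description, with no test, and between genes per kb of the longest transcript as well, a scale that would not apply if reads came only from transcript 3′ ends. With pLKO, CCND2 was highest in HL-60 at 336 ± 42.1 per 1000000 (SD, n = 3), lower in MOLM-13 at 166 ± 41.2 (SD, n = 3) and lowest in U937 at 34.6 ± 15.3 (SD, n = 2), and no neighbours in that order overlapped. CCND3 had another order without overlap, with 198 ± 32.2 per 1000000 (SD, n = 3) in MOLM-13, 113 ± 7.84 (SD, n = 2) in U937 and 67.2 ± 7.3 (SD, n = 3) in HL-60. The order of CCNE1 was that of CCND2, with means 5.66 times apart from HL-60 to U937 and no overlap. CCNE2 was highest in MOLM-13 at 75.2 ± 17.9 per 1000000 (SD, n = 3), and its U937 and HL-60 libraries, at 15.3 ± 5.83 (SD, n = 2) and 9.98 ± 2.02 (SD, n = 3), overlapped. CDK1 was the most even member, with overlapping lines and means 1.05 times apart.

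The knockdown changed some of these orders. With shRNF5, CCND3 was highest in U937, above MOLM-13 and HL-60 without overlap, and so was CCNE2. The means of CCNE1, 5.66 times apart between the lines with pLKO, were 1.3 times apart with shRNF5, and all neighbouring lines overlapped. Per 1000000 and per kb, the members with the highest mean in HL-60 controls were CDK4 at 122 ± 20.5 and CCNB1 at 111 ± 14.4 (SD, n = 3), followed by CDK1 at 105 ± 3.18. CCNE1 and CCNE2 had the lowest levels in U937, at 3.58 ± 2.52 and 4.59 ± 1.75 (SD, n = 2), with CCND2 close to them at 5.06 ± 2.24 (SD, n = 2).

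**Figure D3:**
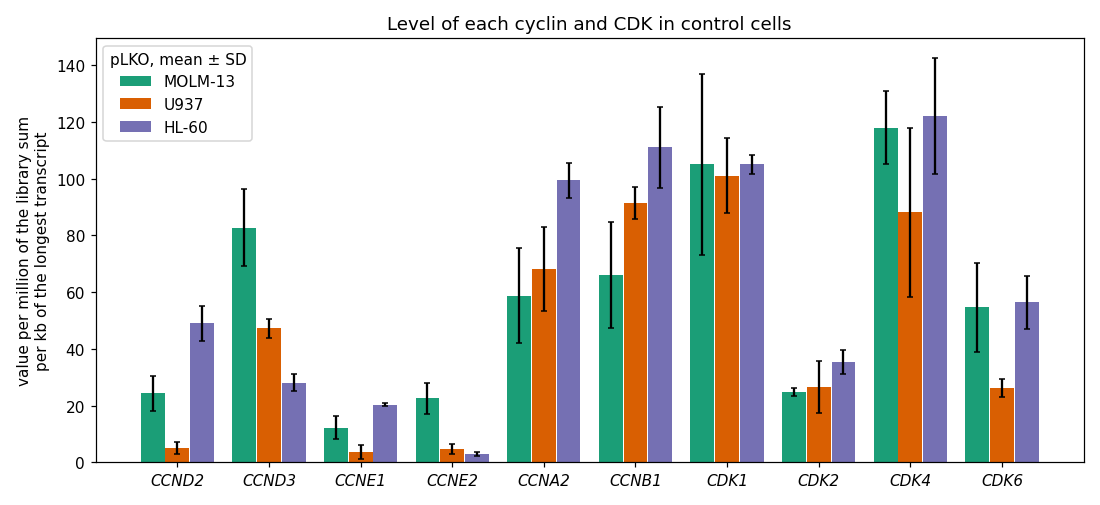
Level of each member in pLKO cells (vertical axis, value per 1000000 of the library's summed values and per kb of the longest transcript, from 0) in MOLM-13, U937 and HL-60. Bars are means and error bars are SDs over 3, 2 and 3 libraries. CCND2, CCND3 and CCNE1 stand apart in all 3 lines, CCNE2 stands higher in MOLM-13, and CDK1 stands at 105, 101 and 105.

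The response to RNF5-KD was compared between lines by testing the difference of the fold changes in a limma fit over all 15 libraries and 11072 genes above 0 in all 3 lines. This fit takes a shared spread for each gene, though the lines varied unequally. Against the fits of single lines, the SE of CCND2 in U937 went from 0.393 to 0.302. That of CCNE1 in HL-60 went from 0.142 to 0.297. The SEs and adjusted p-values of the differences do not allow for this. Between U937 and HL-60 the response of 3 members differed, beside 37.2% of all tested genes. On the log2 scale, the U937 minus HL-60 difference was 2.48 for CCNE1 (SE 0.47, limma adjusted p = 0.00217), 1.91 for CCNE2 (SE 0.43, 0.00548) and 1.40 for CCND3 (SE 0.27, 0.00247). For CCND3 and CCNE2 the cyclin rose in both lines and more so in U937, whereas CCNE1 rose in U937 and fell in HL-60. These 3 differences kept an adjusted p under 0.1 in all 15 fits that left out a library, over which that of CCNE1 ranged from 1.72 to 3.24. CCND2, with log2 fold changes of -0.94 and -0.91, differed by -0.03 with an SE of 0.39 (limma adjusted p = 0.961).

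Between MOLM-13 and U937 the response of 5 members differed, beside 15.4% of all tested genes. The MOLM-13 minus U937 difference was -2.74 for CCNE2 (SE 0.45, limma adjusted p = 0.00782), -2.12 for CCNE1 (SE 0.49, 0.0227) and -1.88 for CCND3 (SE 0.29, 0.00782). CCND2 differed by 1.11 (limma adjusted p = 0.0993) and CCNA2 by -0.97 (0.061), although neither was called in MOLM-13 or in U937. The CCND2 difference was lost in 13 of 15 fits that left out a library. That of CCNA2 was lost without MOLM-13 pLKO replicate 2, MOLM-13 shRNF5 replicate 2, U937 pLKO replicate 2 or U937 shRNF5 replicate 1, and that of CCNE1 without U937 shRNF5 replicate 1 (limma adjusted p = 0.136). The CCNE1 difference ranged from -2.88 to -1.36 over these fits. No member differed between HL-60 and MOLM-13 in limma, beside 8.82% of all tested genes. An unadjusted p under 0.05 was found for 2 members, and the share of all tested genes under that limit was not counted. Each of these 3 comparisons shares the libraries of a line with each of the others, so they are not independent.

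Within a library, the balance between members of a class can be read as a ratio, which does not depend on the scaling of the library. These ratios were formed after the values had been seen and are given without a test. The ratio of CCNE2 to CCNE1 in MOLM-13 was 2.41, 4.31 and 3.06 with pLKO and 5.64 and 4.45 with shRNF5. In U937 it was 3.17 and 1.85 with pLKO and 6.7 and 5.13 with shRNF5. In HL-60 it was 0.248, 0.207 and 0.3 with pLKO and 1.24, 0.545 and 1.09 with shRNF5. Every shRNF5 library lay above every pLKO library of its line, in MOLM-13 by the small margin of 4.45 against 4.31, and the geometric means were 3.63 times as high with shRNF5 in HL-60, 2.42 times in U937 and 1.58 times in MOLM-13. The ratio of CCND3 to CCND2 had geometric means of 3.43 with pLKO and 29.9 with shRNF5 in U937 and of 0.2 and 0.644 in HL-60, without overlap. In MOLM-13 it was 1.21 and 1.32, and the libraries overlapped.

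**Figure D4:**
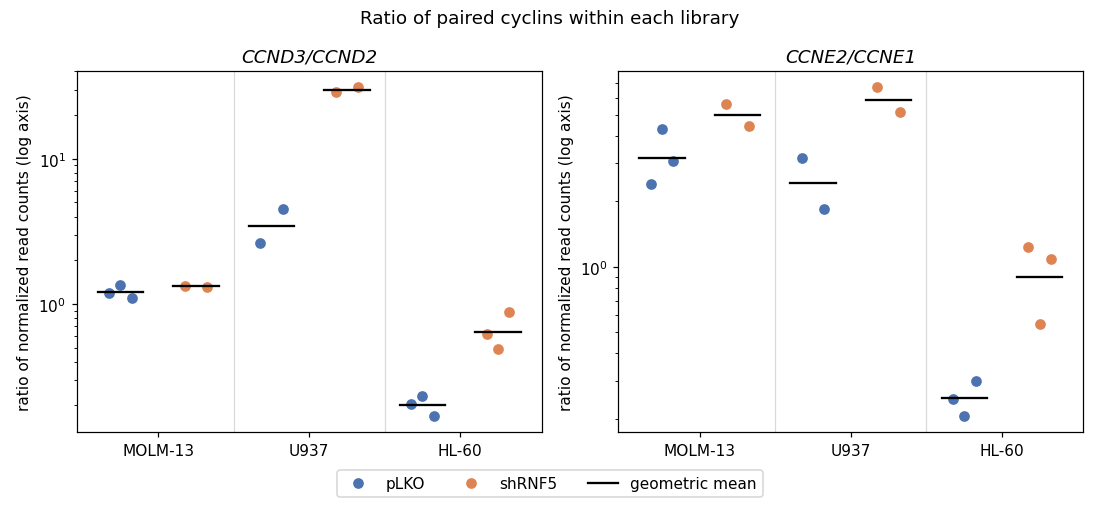
Ratio of CCND3 to CCND2 (left) and of CCNE2 to CCNE1 (right) in each library (vertical log axes), by line and construct, with geometric means as bars. The CCNE2 to CCNE1 ratio with shRNF5 lies above pLKO in each of the 3 lines, and the CCND3 to CCND2 ratio does so in U937 and HL-60.

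Over all 15 libraries, after the mean of each line was subtracted, CCND3 and CCNE2 were the members most alike (Pearson r = 0.906), followed by CCNB1 and CDK1 (0.819) and by CCNA2 and CDK1 (0.781). CCND2 went against CCNE2 (-0.74) and CDK4 (-0.706). The points share the contrast of pLKO with shRNF5, which any gene that responds in U937 and HL-60 carries, and the libraries of a line share its normalization, so these r values are descriptions. Among 11054 genes above 0 in every library and outside the members, the genes most like CCNE2 were E2F6 (0.971) and RRM2 (0.968), and those most like CCND3 were MSN (0.959) and TES (0.955). Those most like CCNE1 were GDAP1 (0.957) and LDHA (0.949), and those most like CCND2 were GPR107 (0.924) and EIF2AK4 (0.914). CCNB1 was most like CDC20 (0.97) and CDCA2 (0.951), CCNA2 like NUP37 (0.941) and GTSE1 (0.927), and CDK1 like TOP2A (0.937) and CENPA (0.916). The other kinases were most like AKT1 (0.92) and FBXO4 (0.908) for CDK2, ZNF672 (0.933) and EIF5B (0.93) for CDK4, and FANCM (0.922) and PUM2 (0.892) for CDK6.

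The members work within a pathway of which 59 other genes were listed. With limma, 14 of 58 tested genes rose and 3 fell in HL-60, 13 of 56 rose and 2 fell in U937, and 2 of 55 rose and 0 fell in MOLM-13, where 25.9%, 15.7% and 2.04% of all tested genes were called. The median log2 fold change of these genes was 0.15, 0.32 and -0.04 in that order, against 0.00, 0.00 and 0.01 for all tested genes. Of the retinoblastoma, E2F and DREAM genes, which act on E-type cyclin transcription, 6 of 18 rose and 0 fell in U937, 2 of 19 rose and 2 fell in HL-60, and 0 of 19 were called in MOLM-13. Of the CDK inhibitors, 1 of 5 rose in MOLM-13, 2 of 7 rose and 1 fell in U937, and 6 of 7 rose in HL-60. Of the kinases, phosphatases and subunits that act on CDK phosphorylation, 1 of 7 rose in U937, 2 of 7 in HL-60 and 0 of 7 in MOLM-13. Of the genes of cyclin degradation, 2 of 10 rose in U937 and 0 of 11 were called in the other lines. Of the CDK-activating kinase, 1 of 3 rose in HL-60 and none was called elsewhere. Of 3 proliferation markers, 1 rose in U937 and none was called elsewhere.

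Of the other cyclins and CDKs, 3 of 8 rose and 1 fell in HL-60, 1 of 8 rose and 1 fell in U937, and 1 of 7 rose in MOLM-13. CCND1, the third D-type cyclin, went opposite ways in MOLM-13 and HL-60. In MOLM-13 its values were 296, 225 and 346 with pLKO and 612 and 796 with shRNF5, a rise of 1.29 on the log2 scale with an SE of 0.23 (limma adjusted p = 0.0704). In HL-60 they were 900, 880 and 858 with pLKO and 398, 483 and 313 with shRNF5, a log2 fold change of -1.16 with an SE of 0.16 (limma adjusted p = 0.00199). The groups did not overlap in either line. Without the mean-variance trend the MOLM-13 call was lost (limma adjusted p = 0.153). The MOLM-13 call was lost in 4 of 5 fits without a library, those without pLKO replicate 2, pLKO replicate 3, shRNF5 replicate 1 or shRNF5 replicate 2. In U937 CCND1 was low, with 24 and 9 with pLKO and 61 and 31 with shRNF5, and was not called (limma adjusted p = 0.193). CCNF, a cyclin that serves as a ubiquitin ligase subunit, rose by 0.86 in U937 (limma adjusted p = 0.0606) and by 0.43 in HL-60 (0.0527) on the log2 scale. Its U937 call was lost without any of the 4 libraries, and its HL-60 call without pLKO replicate 3 (limma adjusted p = 0.211), shRNF5 replicate 1 (0.133) or shRNF5 replicate 3 (0.126).

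The CDK inhibitors CDKN1A (p21), which binds cyclin-CDK2 complexes, and CDKN2D (p19), which binds CDK4 and CDK6, were called beside these cyclin changes. CDKN1A rose in all 3 lines, by 1.82 in HL-60 (limma adjusted p = 0.0115), 2.54 in U937 (0.0117) and 1.30 in MOLM-13 (0.0682) on the log2 scale. Its level differed widely between the lines, since the HL-60 values were 12, 7 and 7 with pLKO and 41, 21 and 39 with shRNF5, against 4468 to 15509 in MOLM-13. CDKN2D rose in U937 from 388 and 338 to 664 and 717 and in HL-60 from 61, 68 and 59 to 260, 164 and 255 (limma adjusted p = 0.0678 and 0.00125). In MOLM-13 its log2 fold change of 1.14 had a limma adjusted p of 0.119, but it was called there with the replicate block (1.39, 0.0148), in the single fit over all libraries (1.14, 0.0464) and with the transcript length correction (1.31, 0.0898). The U937 calls of CDKN1A and CDKN2D were lost without pLKO replicate 2, shRNF5 replicate 1 or shRNF5 replicate 3, that of CDKN2D also without pLKO replicate 3. The MOLM-13 call of CDKN1A was lost without pLKO replicate 2, shRNF5 replicate 1 or shRNF5 replicate 2.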

How the data were processed

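RNA-seq libraries of MOLM-13, U937 and HL-60 cells were grouped by construct and replicate number from the sample labels. The authors aligned reads to hg19 with STAR, counted them with featureCounts, and normalized each line with edgeR through SARTools. What the authors deposited is a score, namely normalized read counts rounded by them, and genes below their filter on low counts are listed at 0. Because these are not counts, a count model was not fitted. The kit primes at 3′ ends by the labels and is a directional poly(A) kit by the methods, so how values scale with transcript length is unsure.

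limma 3.58.1 in R 4.3.3 was fitted to log2(value + 1) over all genes above 0 in any library of a line, with a mean-variance trend and Benjamini-Hochberg adjustment. One fit over 15 libraries with 6 group means tested differences between lines. A pseudocount of 1 understates fold changes of low genes. The steps between rounded values gave an estimate of each library's depth, and no counting intervals are given. The fits and the estimate were tested on simulated data. No 2 of the 15 libraries held identical values. Coordinates and transcript lengths came from GENCODE on GRCh37.

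The members, gene lists and tests were chosen with earlier results of these data known, so no p was adjusted over a list and no set was tested. Named genes are the members, RNF5, pathway genes called in at least 2 lines or in opposite directions, and for each member the 2 genes most like it. Markers and the pathway genes called in 1 line, all of which the closing section names, were named after their values were seen. Whether replicate numbers pair libraries is not settled, and the main fits took libraries as unpaired. Deviations of same-numbered libraries correlated at -0.133 and -0.447 in MOLM-13 and at 0.386, 0.12 and -0.0466 in HL-60. The numbers of the MOLM-13 shRNF5 libraries differ between the sample titles and the names of the deposited data, and the titles were used. These 2 libraries deviate from their own mean as mirror images by arithmetic. Crossing their numbers gave 0.133 and 0.447, which only turns the sign and adds no information. Alternatives changed the pseudocount, the filter, the scaling, the trend, the thresholds, the libraries, a replicate block, a correction for transcript length and a joint fit. The crossed and shifted blocks were added after the data were seen.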

Additional observations from a re-analysis of the deposited data

Results flagged for a closer look

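The following genes were set apart because their response to RNF5-KD differed between lines in limma's test of the difference itself (adjusted p under 0.1), and no cause was tested. The MOLM-13 minus U937 difference of the log2 fold change was 1.11 for CCND2, -1.88 for CCND3, -2.12 for CCNE1, -2.74 for CCNE2, -0.97 for CCNA2 and -0.91 for CCNF. The U937 minus HL-60 difference was 1.40 for CCND3, 2.48 for CCNE1, 1.91 for CCNE2, 2.66 for CCND1 and -0.88 for CDKN2D. The MOLM-13 minus HL-60 difference was 2.46 for CCND1, for which the lines were called in opposite directions. The difference of CCND1 held in all 15 fits that left out a library, for both pairs of lines. That of CCNF was lost in 4 of 15 such fits, without MOLM-13 pLKO replicate 2, MOLM-13 shRNF5 replicate 2, U937 pLKO replicate 2 or U937 shRNF5 replicate 1, and that of CDKN2D was lost in 9 of 15, with adjusted p-values from 0.0359 to 0.209.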

How the results depend on the processing

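No call of a member turned direction under any alternative. In U937, 5 members were called higher and 1 lower in the single fit over all libraries, as CCNA2, CCNB1 and CCND2 were added, and 0 to 3 were called higher without a library in turn. In HL-60, 5 were called higher with no minimum fold change, as CCNB1, CDK1 and CDK4 were added. That setting also raised the HL-60 calls over all genes above the 3251 of the main fit. In the single fit over all libraries, 1 member was called lower in HL-60. Without a library in turn, 2 to 4 members were called higher there, 4 of them without pLKO replicate 2 or shRNF5 replicate 1. Members that differed between MOLM-13 and U937 numbered 2 to 7 over the fits without a library, 3 without MOLM-13 pLKO replicate 2, MOLM-13 shRNF5 replicate 2 or U937 pLKO replicate 2 and 2 without U937 shRNF5 replicate 1. For MOLM-13 and HL-60 they numbered 0 to 1, and 1 with equal sums of values, and for U937 and HL-60 3 to 5, with 5 without U937 pLKO replicate 3. Where a fit leaves 1 library in an arm, that library is assumed to vary like the others.

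The replicate block changed no call of a member in HL-60 (2 higher and 2 lower) or MOLM-13 (0 called), and it added the call of CDKN2D in MOLM-13, and in U937 the arms share only number 3, so no such fit was made. Over all genes the block gave 738 calls in MOLM-13 in place of 266. In MOLM-13, same-numbered libraries deviated in opposite directions (Pearson r of -0.133 and -0.447), and crossing the numbers turns these signs by arithmetic. With the numbers crossed there, 1 member (CCND3) was called higher and 2 (CCNE1 and CCNA2) lower among 2916 genes. With shRNF5 numbers taken as 2 and 3, 2 (CCNA2 and CDK1) were called lower among 2495.

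Over all genes, without a library in turn the calls ranged from 1 to 872 in MOLM-13, 0 to 2369 in U937 and 1970 to 3413 in HL-60, and the differences from 130 to 3436 for MOLM-13 and U937, 49 to 1566 for MOLM-13 and HL-60 and 2609 to 4798 for U937 and HL-60. Without the trend the calls came to 55 in MOLM-13 and 475 in U937, and at an adjusted p under 0.05 to 39 and 824. The single fit called 3994 in U937. The cause of these shifts was not tested. Depth limits genes with low values, such as CDKN1A in HL-60 and CCND1 in U937, most.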

Other observations

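All listed pathway genes that were called in 1 line are named here, after their values were seen. The CDK inhibitors that rose in HL-60 beside CDKN1A and CDKN2D were CDKN1B (log2 fold change 0.83, limma adjusted p = 0.0062), CDKN1C (2.63, 0.00125), CDKN2B (1.67, 0.00625) and CDKN2C (0.95, 0.00389), of which the first pair belongs with p21 to the family that binds cyclin-CDK complexes and the others to the family that binds CDK4 and CDK6. In U937, CDKN2A fell by 1.07 on the log2 scale (limma adjusted p = 0.0343). In the same line CDC25A, a phosphatase that activates CDK2, rose by 1.79 on the log2 scale (limma adjusted p = 0.025), E2F2 by 1.42 (0.0266), E2F8 by 1.05 (0.0347), RBL1 by 0.99 (0.048), MYBL2 by 1.01 (0.0507), E2F3 by 0.79 (0.0812) and FOXM1 by 0.83 (0.0736). MKI67, a marker of cycling cells, rose in U937 (1.60, 0.0179). These U937 values come from the same 4 libraries as the cyclin calls. In HL-60, CCNA1, the A-type cyclin best known from the germ line and from leukemic cells, rose by 2.31 (limma adjusted p = 0.00623), and E2F5 fell by 2.54 (0.0131). TFDP2, a partner of E2F factors, fell by 0.84 (0.00212). CDC25B and CDC25C, phosphatases that activate CDK1, rose in HL-60 by 0.61 (limma adjusted p = 0.0137) and 0.63 (0.0208), and so did CCNG2 by 0.57 (0.0619), MNAT1, a subunit of the CDK-activating kinase, by 0.45 (0.0544), RBL2 by 0.45 (0.0582) and E2F1 by 0.48 (0.0639). In U937, FBXO5, an inhibitor of the ubiquitin ligase that degrades mitotic cyclins, rose by 1.02 (limma adjusted p = 0.0465) and CUL3, a ubiquitin ligase scaffold, by 0.84 (0.0618), and CCNG1 fell by 0.69 (0.0985).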
